A study of Mus musculus with 36 samples.

Results

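The 4 libraries of mouse pancreatic fibroblasts kept for 48 h with KPC1 tumour cells were compared with the 4 libraries of fibroblasts grown in mono-culture, that is without tumour cells. These 8 libraries were taken by their column labels from a series of 36, in which the other 28 hold fibroblasts co-cultured with 1 of 7 tumour sub-clones, named E, H, K, M, N, T and V, at 4 libraries each. The fibroblasts came from the C57BL/6 strain, no genotype or age is given for them, and KPC1 is described no further than as a tumour line. After co-culture the cells were separated by flow cytometry on a green fluorescent protein (GFP) that only the tumour cells carried, RNA was taken from the fibroblast side, and poly(A) RNA was sequenced as 76 bp read pairs. The labels give the same handling text for every group, without saying whether fibroblasts in mono-culture also passed through the sorter or whether the replicates were separate cultures, so p-values measure only the spread between these libraries. Levels are in CPM, the counts of a gene relative to its library's total after scaling between libraries by the trimmed mean of M-values (TMM), and differences are log2 fold changes of KPC1 over mono-culture with their standard error (SE), n = 4 libraries against 4.

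Pancreatic fibroblasts, among them the stellate cells, build and remodel the collagen matrix around acini and ducts, and in pancreatic cancer they make up much of the stroma. In culture with tumour cells they are known to shift between states, of which a contractile, matrix-producing state driven by transforming growth factor-β (TGF-β) and an inflammatory state that secretes interleukins and chemokines are the best described. Tumour cells also take nutrients from the shared medium, secrete ligands of the EGF, Hedgehog and Wnt pathways and carry Notch ligands on their surface. Genes of these pathways and of amino acid metabolism were therefore examined as gene lists.

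The 8 libraries held 12577931 to 20727926 counts assigned to genes, with the smallest total in mono-culture replicate 3. Mitochondrial transcripts took 3.06% to 4.06% of the counts in KPC1 and 2.16% to 4.31% in mono-culture, where replicate 4 was the lowest. The 10 fibroblast markers summed to 12771 to 16474 CPM in KPC1 and 21811 to 23605 CPM in mono-culture, and none of them was at 0 in any of these libraries. The 20 epithelial markers summed to 787, 291, 481 and 369 CPM in KPC1 replicates 1 to 4, against 48.3 to 53.9 CPM in mono-culture, so every KPC1 library lay above every mono-culture library and replicate 1 was the highest. Of these 20 markers, 12 of the 14 tested were higher in KPC1 and none was lower, while Epcam, Cldn7, Tjp3 and Grhl2 had too few counts to be tested and Cldn4 and Esrp1 were at 0 in all 4 KPC1 libraries. Across the 7 clones the same sum ran from 52.6 to 1003 CPM. The leukocyte markers summed to 12.5 to 24.2 CPM in KPC1 and 10.1 to 14.1 CPM in mono-culture, and Ptprc, Emr1, Cd3e and Tyrobp were at 0 in both groups. Endothelial markers summed to at most 6.81 CPM and acinar and islet markers to at most 9.52 CPM in these libraries. In sorted bulk samples, a change in how many cells of a type are present cannot be told apart from a change in RNA per cell, and the part of the epithelial transcripts in the results that follow was not tested.

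**Figure D1:**
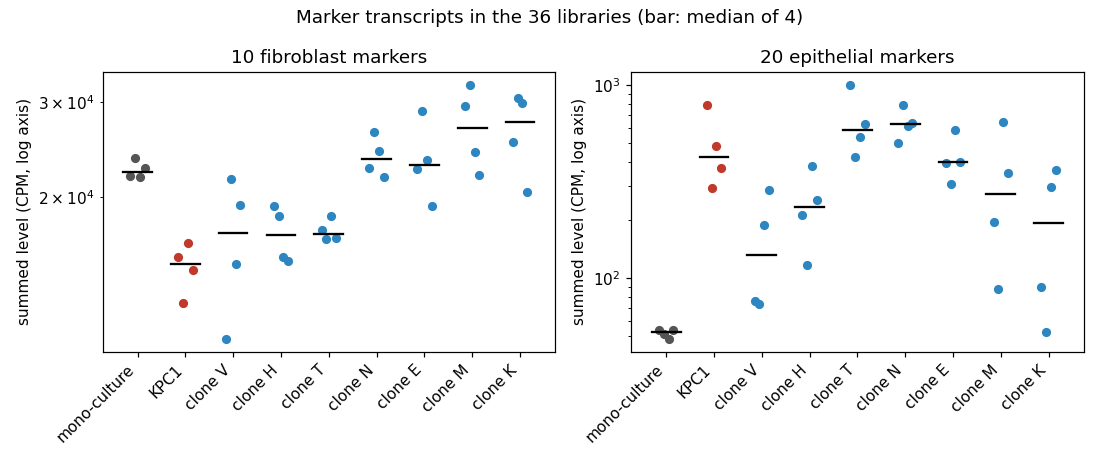
Summed CPM (log axis) of the 10 fibroblast markers (left) and the 20 epithelial markers (right) in each of the 36 libraries, by group, with 1 point per library and a bar at the median of the 4. The epithelial sum is 291 to 787 CPM in KPC1 and 48.3 to 53.9 CPM in mono-culture, and several clones reach sums like those of KPC1.

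Of 14439 genes tested, 8526 (59.0%) differed between KPC1 and mono-culture at an adjusted p under 0.05 in edgeR's quasi-likelihood test. Of these, 4410 (30.5%) were higher in KPC1 and 4116 (28.5%) were lower. This balance depended on the scaling, with 3701 higher and 4693 lower when only library totals were used. A change of at least 2-fold was met by 3046 genes (21.1%), 1371 higher (9.50%) and 1675 lower (11.6%). The 4 KPC1 libraries lay wholly above or wholly below the 4 mono-culture libraries for 7734 genes (53.6%). Because more than 1 gene in 2 passed, the count for each gene list is to be read against these shares. A list's median log2 fold change, where given, is to be read against the median of all genes tested, 0.01. The share called in either direction was near 59.0% for contractile (57.1%), endoplasmic reticulum (58.3%), transporter (55%), Wnt (60.9%), collagen-modifying (61.1%) and Hedgehog (61.5%) genes. It was 47.1% to 52.9% for interferon-stimulated, class I presentation, glycolytic, hypoxia, respiratory chain, replication and retinoid genes. For mitotic and proteasome genes it was 33.3% and 38.7%.

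**Figure D2:**
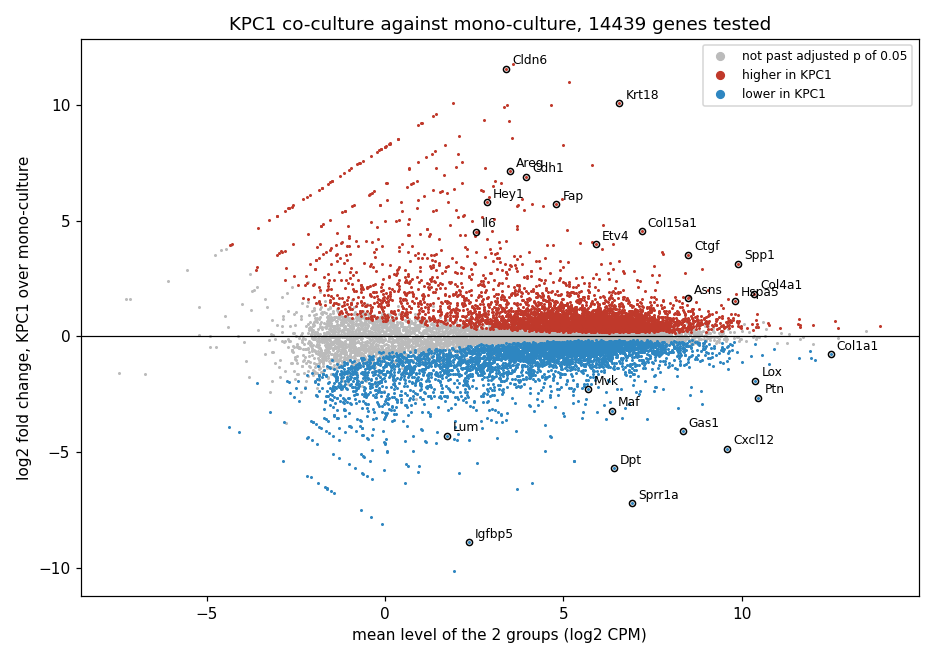
Mean level over the 8 libraries (log2 CPM, horizontal) against the log2 fold change of KPC1 over mono-culture (vertical) for the genes tested, with genes past an adjusted p of 0.05 in colour and the genes described in the text labelled. Of these genes, 4410 lie above 0 and 4116 below 0 among those that passed.

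The highest fold changes belonged to genes that fibroblasts in mono-culture scarcely transcribed, keratin and junction genes of epithelia among them. Krt8 and Krt18 (ENSMUSG00000049382 and ENSMUSG00000023043) are the keratin pair of simple epithelia. Krt18 was at 315, 102, 185 and 155 CPM in KPC1 replicates 1 to 4 and at 0.165, 0.220, 0.0761 and 0.183 CPM in mono-culture. Krt8 was at 123, 32.6, 73.7 and 57.8 CPM in KPC1, and 2 reads in all were counted in mono-culture, a ratio of 2615 with a 95% exact counting interval of 724 to 21599 that covers counting error only. The groups were far apart for both keratins, and KPC1 replicate 1 was the highest and replicate 2 the lowest in each. Krt19 stood at 105, 26.4, 60.4 and 59.4 CPM in KPC1 and at 0.220, 0.165, 0.228 and 0.183 CPM in mono-culture. The tight junction gene Cldn6 was at 34.2, 12.5, 24.4 and 12.6 CPM in KPC1 and at 0 in every mono-culture library, at least 120.3-fold higher against a floor of 3 counts per library. Palmd, which encodes a paralemmin-like protein, also had no count in mono-culture and was at 26.1, 11.3, 41.8 and 16.6 CPM in KPC1, at least 138-fold higher. The adherens junction cadherin Cdh1 was at 44.1, 21.3, 37.3 and 20.8 CPM in KPC1 and at 0.440, 0.440, 0.152 and 0 CPM in mono-culture, a log2 fold change of 6.89 ± 0.71 (edgeR adjusted p = 3.4e-09). The endoderm transcription factor Foxa2, at 20.03, 7.54, 15.9 and 11.5 CPM in KPC1, had 1 read in mono-culture. The other genes among the 20 highest were Wfdc2, Cdh13, Ifi202b, Cadm1, Padi2, Nptx1, Rbp4, Areg, Shank3, Aim2, Cdh15, Wnt7b and Itga2. In 18 of these 20 genes KPC1 replicate 1 was the highest of the KPC1 libraries, as it was for the epithelial marker sum. The keratin and Ifi200 families have near-identical copies, so counts of Krt8, Krt18 and Ifi202b are uncertain to the extent that reads were split among them.

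At the other end, the 20 lowest fold changes belonged to genes of varied products, among them a chemokine, matrix proteins and small proline-rich proteins. Cxcl12 (ENSMUSG00000061353, GRCm38 chr6:117168535-117181367), a chemokine that stromal cells secrete, was at 1639, 1667, 1340.4 and 1279 CPM in mono-culture and at 49.3, 37.3, 50.6 and 65.8 CPM in KPC1, 29.2-fold lower (-4.87 ± 0.43, edgeR adjusted p = 3.1e-10). The lowest mono-culture library stood far above the highest KPC1 library. Dpt, which encodes the matrix protein dermatopontin, was at 228, 175, 126 and 137 CPM in mono-culture and at 1.69, 2.71, 3.27 and 5.13 CPM in KPC1, 52.02-fold lower. Gas1, a growth-arrest gene whose product is a co-receptor for Hedgehog ligands, was at 631, 672, 647 and 498 CPM in mono-culture and 26.4, 19.7, 45.8 and 51.5 CPM in KPC1. Sprr1a, a small proline-rich protein gene, was at 276, 303, 213 and 168 CPM in mono-culture and 1.90, 1.51, 1.36 and 1.65 CPM in KPC1, 149.7-fold lower, and its family member Sprr2k fell with it, although reads may be shared within that family. Igfbp5, an insulin-like growth factor binding protein, was spread over 17.3, 13.2, 6.69 and 3.29 CPM in mono-culture and had 1 read in all 4 KPC1 libraries, a ratio of 694 with a counting interval of 124 to 27463. The remaining genes among the 20 lowest were Gdpd2, Hlf, Slc24a3, Mme, Rspo2, Tmod2, Plin4, C3, Apod, Tnxb, Tgfbi, Pdzd2, Rspo3 and Gm26737, with log2 fold changes between -6.61 and -3.65. Mme, the cell-surface peptidase neprilysin, was at 102, 78.7, 58.7 and 67.2 CPM in mono-culture and 1.42, 1.45, 2.16 and 2.40 CPM in KPC1.

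**Figure D3:**
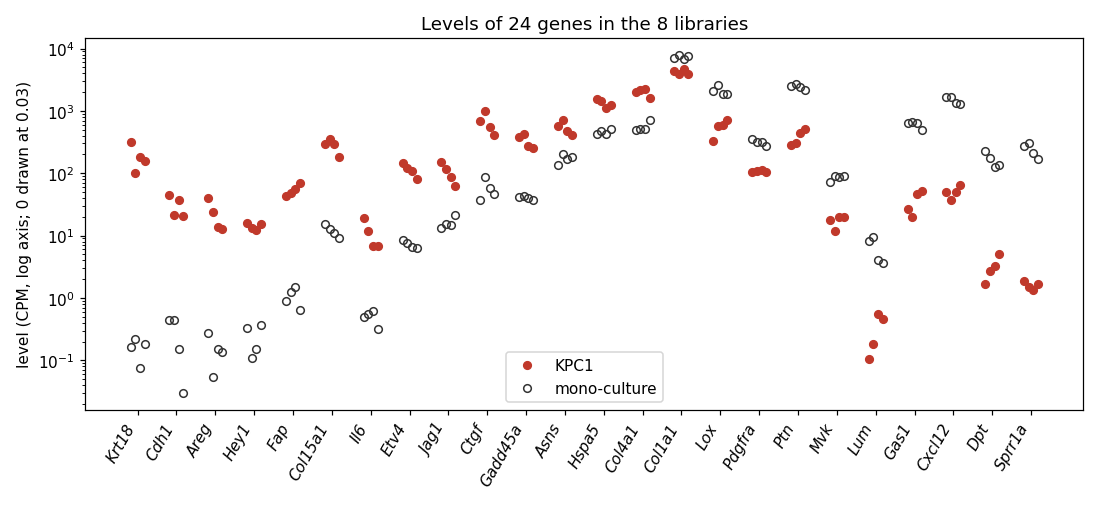
Level of 24 genes in each library (CPM, log axis, with 0 drawn at 0.03), KPC1 in filled and mono-culture in open circles. The genes drawn were picked among those whose 4 KPC1 libraries lie on 1 side of the 4 mono-culture libraries, as for 53.6% of all genes tested.

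Surface genes by which cancer-associated fibroblasts are sorted did not move as a block. Among 13 tested, 4 were higher and 5 lower. Fap, the fibroblast activation protein, a serine protease of activated stroma, (ENSMUSG00000000392, GRCm38 chr2:62500943-62574075) was at 43.3, 48.3, 56.2 and 70.1 CPM in KPC1 and 0.881, 1.27, 1.52 and 0.640 CPM in mono-culture, 50.6-fold higher (5.71 ± 0.29, edgeR adjusted p = 3.4e-15). The libraries of the 2 groups were separated by a wide gap. Thy1 and Pdgfrb, both surface markers of fibroblasts, had log2 fold changes of 0.80 and 0.79. In contrast, the progenitor-associated genes Cd34 (-2.40), Pi16 (-1.71) and Ly6a (-1.55) were lower, as was the PDGF receptor Pdgfra, at 353, 314, 312 and 269.5 CPM in mono-culture and 105, 107, 111 and 105 CPM in KPC1. The podoplanin gene Pdpn fell by 0.65 on the log2 scale.

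Matrix genes changed in both directions. Of 10 fibrillar collagen genes tested, 2 were higher and 5 lower, with a median of -0.79, and the main chains of interstitial fibrils were among those that fell. Col1a1 was at 7018, 7935, 6670.1 and 7449 CPM in mono-culture and 4431, 3898, 4684 and 3916 CPM in KPC1, 1.72-fold lower. Col1a2 (-1.01) and Col3a1 (-0.94) also fell, and these 3 genes had the largest losses in CPM, a scale that is not corrected for transcript length. Ranks by CPM, here and below, cover only called genes with a group mean of at least 10 CPM and groups that do not overlap. Col5a3, a minor fibril chain, rose instead, at 614, 633, 636 and 374 CPM in KPC1 and 149, 149, 178 and 208 CPM in mono-culture. Of 18 basement membrane genes, 10 were higher and 5 lower, with a median of 0.88. Col4a1 was at 2044, 2168, 2276 and 1609 CPM in KPC1 and 491, 519, 519.8 and 726 CPM in mono-culture, and Col4a2, its partner in the type IV network, rose by 1.84 on the log2 scale, as Col4a1 did by 1.84. Col15a1, a collagen that anchors basement membranes to the fibrils beneath, was 23.2-fold higher, at 299, 349, 293 and 182 CPM against 15.4, 12.7, 10.95 and 9.28 CPM. The laminin chains Lama5 (1.70), Lamc1 (1.05) and Lamb1 (0.94) also rose, while Lama2 (-1.07) and Lamb2 (-0.66) fell.

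Of 18 genes for collagen-modifying enzymes and their helpers, 7 were higher and 4 lower. The lysyl oxidase Lox, which starts the covalent cross-links, was at 2082, 2564, 1875 and 1877 CPM in mono-culture and 335, 572, 596 and 709 CPM in KPC1, 3.80-fold lower (-1.92 ± 0.29, edgeR adjusted p = 1.9e-06). Loxl1 (-1.34) and the procollagen C-proteinase enhancer Pcolce (-1.42) were lower as well, whereas their relatives Loxl3 (0.99), Loxl4 (0.77) and Pcolce2 (1.20) and the prolyl hydroxylase chains P4ha3 (1.07) and P4ha2 (0.93) were higher. Of 28 other matrix glycoproteins and proteoglycans, 8 were higher and 14 lower. Among the small leucine-rich proteoglycans, which bind fibrils, Lum (-4.29), Fmod (-2.51), Dcn (-2.20) and Ogn (-2.18) were lower, whereas biglycan (Bgn), among the 10 largest gains in CPM, rose by 0.49. Asporin (Aspn) was at 62.1, 61.7, 108 and 116 CPM in KPC1 and 18.3, 21.5, 16.1 and 13.8 CPM in mono-culture, and Mgp, the matrix Gla protein that restrains calcification, rose by 2.32. Fibronectin (Fn1) rose by 0.65 in edgeR, but it did not pass in 10 of the 17 alternative settings tried, left-out libraries included.

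Among 19 proteases and inhibitors, 6 were higher and 7 lower. Timp1, an inhibitor of metalloproteases, rose by 1.62, while Timp2 (-1.09), Mmp2 (-1.28) and Mmp14 (-1.27) fell together, the last being the activator of pro-MMP2. The aggrecanases Adamts5 and Adamts1 were lower, at 111 against 842 CPM and 109.7 against 635 CPM. Of 14 contractile genes of smooth muscle, which mark the myofibroblast state, 5 were higher and 3 lower. Acta2, the smooth muscle actin, was at 237, 278, 391 and 322 CPM in KPC1 and 109, 148, 121 and 195 CPM in mono-culture, 2.14-fold higher (edgeR adjusted p = 0.013). Tagln rose by 1.66 and Smtn by 1.55, whereas Myl9 (-1.49) and Tpm2 (-0.65) fell.

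Cytokine and chemokine genes were mostly higher in KPC1. Of 24 tested, 17 were higher and 1, Cxcl12, was lower, with a median of 1.79. Il6, a cytokine of inflammatory fibroblasts, was at 19.2, 11.6, 6.90 and 6.79 CPM in KPC1 and 0.495, 0.550, 0.608 and 0.320 CPM in mono-culture, 22.6-fold higher (4.51 ± 0.42, edgeR adjusted p = 3.5e-10). Lif, another cytokine that signals through gp130, was at 45.4, 19.5, 19.8 and 9.52 CPM in KPC1 and 2.04, 2.15, 2.28 and 2.83 CPM in mono-culture, and Il11, also of that family, rose by 1.90. The alarmin Il33 was at 57.9, 33.8, 19.1 and 33.02 CPM in KPC1 and 5.39, 4.95, 3.73 and 4.25 CPM in mono-culture. Tslp, which acts on dendritic cells, rose by 3.61. KPC1 libraries lay above all mono-culture libraries for each of these 5 genes. For 2 chemokines and an NF-κB feedback gene, the KPC1 group was led by replicate 1, and the groups overlapped. Cxcl1, which attracts neutrophils, was at 292, 5.67, 21.9 and 10.8 CPM in KPC1 and 3.41, 4.90, 8.37 and 3.70 CPM in mono-culture, and its log2 fold change fell from 4.05 to 1.34 without KPC1 replicate 1. Ccl2, which attracts monocytes, was at 602, 67.9, 216 and 119.5 CPM in KPC1 and 92.2, 88.7, 90.9 and 90.96 CPM in mono-culture, and without that replicate it no longer passed (adjusted p = 0.15). Nfkbia, the inhibitor induced by NF-κB, was at 168, 36.2, 50.7 and 44.9 CPM against 43.5, 40.3, 45.6 and 44.1 CPM and likewise did not pass without replicate 1 (adjusted p = 0.96). Leaving out KPC1 replicate 1, the library with the highest epithelial sum, brought the median of the list to 1.0004 and left 12 of the 17 called, among them Il6, Lif, Il33 and Tslp. The prostaglandin synthase Ptgs2 was at 279, 161, 165 and 113 CPM in KPC1 and 17.4, 28.1, 35.1 and 21.1 CPM in mono-culture, 7.06-fold higher.

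Complement genes and most of the interferon-stimulated genes that passed were lower. None of 12 complement genes was higher and 8 were lower, with a median of -1.80. C3, the central component of the cascade, was at 66.8, 39.8, 30.04 and 52.6 CPM in mono-culture and 5.75, 0.784, 1.48 and 1.31 CPM in KPC1, where replicate 1 stood above the other KPC1 libraries. The initiating protease genes C1s (-2.37) and C1ra (-2.27) and the regulator Serping1 (-1.88) fell too. Of 37 interferon-stimulated genes, 1 (Isg20) was higher and 17 were lower, with a median of -0.81, and 14 of the 17 remained without KPC1 replicate 1. Ifit1, which binds viral RNA caps, was at 178, 128, 119 and 219 CPM in mono-culture and 30.2, 51.01, 77.1 and 50.3 CPM in KPC1. Isg15, a ubiquitin-like modifier, was at 116, 64.6, 66.8 and 141 CPM in mono-culture and 32.6, 47.5, 73.8 and 66.8 CPM in KPC1. Its log2 fold change of -0.82 no longer passed without KPC1 replicate 1 (-0.64), KPC1 replicate 2 (-0.76), mono-culture replicate 1 (-0.74) or mono-culture replicate 4 (-0.58). The 250 bases upstream of the RefSeq start (GRCm38.p6) of Ifit1 and Isg15 are shown because both hold, on either strand, the GAAA repeat with a gap of 2 bases that forms the core of the interferon-stimulated response element, in capitals (overlapping repeats run together in Isg15), printed 5′ to 3′ on the strand of the gene.
Ifit1, chr19:34640639-34640888, plus strand: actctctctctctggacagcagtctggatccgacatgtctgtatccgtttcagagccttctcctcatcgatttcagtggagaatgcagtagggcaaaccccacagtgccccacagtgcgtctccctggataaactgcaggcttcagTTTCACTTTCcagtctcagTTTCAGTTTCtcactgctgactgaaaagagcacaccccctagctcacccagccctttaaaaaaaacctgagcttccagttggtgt
Isg15, chr4:156200819-156201068, minus strand: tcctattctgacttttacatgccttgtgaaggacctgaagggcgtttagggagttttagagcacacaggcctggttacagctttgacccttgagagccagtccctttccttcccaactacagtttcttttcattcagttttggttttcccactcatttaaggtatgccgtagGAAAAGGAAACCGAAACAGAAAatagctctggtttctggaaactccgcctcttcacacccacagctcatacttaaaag
The letters were found upstream of 5 of the 12 list members that fell and have a window (41.7%) and of 7 of the 13 that did not pass (53.8%), against 3.04% of all genes with a window. Of 17 class I presentation genes 1, the heavy chain gene H2-T23, was higher and 8 were lower. Among the lower were the peptide-loading gene Tapbp (-1.11) and the immunoproteasome gene Psmb9 (-1.80). The class I heavy chains H2-K1 (-0.01) and H2-D1 (0.12) and B2m (-0.13) did not pass the test.

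The EGF-family ligands of the growth factor list, Areg, Ereg, Hbegf and Nrg1 (0.67), were higher in KPC1, as were 20 of 27 genes that report ERK kinase activity. Areg, amphiregulin, was at 39.6, 23.9, 13.7 and 12.7 CPM in KPC1 and 0.275, 0.0550, 0.152 and 0.137 CPM in mono-culture, 145-fold higher (7.13 ± 0.79, edgeR adjusted p = 1.1e-08). Hbegf was at 172, 149, 90.01 and 61.8 CPM in KPC1 and 10.6, 15.4, 14.1 and 13.8 CPM in mono-culture. Ereg was at 73.1, 73.7, 40.1 and 28.3 CPM in KPC1 and 5.50, 5.67, 6.08 and 5.12 CPM in mono-culture, and the receptor Egfr rose by 1.02. In Areg, Hbegf and Ereg the lowest KPC1 library was above the highest mono-culture library. None of these 27 ERK-responsive and immediate early genes was lower, and their median was 1.45. The ETS factor Etv4 was at 144, 119.6, 109 and 80.98 CPM in KPC1 and 8.37, 7.48, 6.62 and 6.22 CPM in mono-culture, 15.8-fold higher. Fosl1 (3.27), Maff (2.92) and Myc (2.37), all transcription factors, rose with it, as did the feedback phosphatases Dusp6 (2.40) and Dusp4 (2.83) and the inhibitor Spry4 (2.33). Myc was at 386, 428, 280.5 and 222 CPM in KPC1 and 47.9, 71.7, 67.5 and 67.97 CPM in mono-culture. Fosb, Ier2, Dusp1, Fosl2, Spry2, Jund and Fos did not pass, with Fos at 94.5, 56.98, 62.3 and 272 CPM in KPC1 and 57.2, 331, 449.99 and 47.2 CPM in mono-culture, wide ranges that overlapped.

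Growth factor genes changed in both directions, 20 of 32 higher and 8 lower, and 16 of the 20 and all 8 remained without KPC1 replicate 1. Pdgfb was 17.7-fold higher, at 33.5, 15.7, 19.8 and 11.1 CPM in KPC1, and Vegfa, the main angiogenic factor, was at 314, 306, 281 and 195 CPM in KPC1 and 88.2, 91.7, 102 and 105 CPM in mono-culture, while Figf, the lymphangiogenic VEGF-D, was at 175, 209, 159.9 and 190.2 CPM in mono-culture and 10.3, 10.9, 21.9 and 20.3 CPM in KPC1. The insulin-like growth factor binding proteins differed among themselves, with Igfbp3 (4.61), Igfbp7 (1.56) and Igfbp4 (1.05) higher and Igfbp5 and Igfbp6 (-1.87) lower. Spp1, which encodes the secreted phosphoprotein osteopontin, was among the 10 largest gains in CPM, at 3192, 1044, 1243 and 1401 CPM in KPC1 and 225, 167, 169 and 223 CPM in mono-culture. Pleiotrophin (Ptn), a heparin-binding growth factor, was in contrast 6.30-fold lower, at 2542, 2663, 2388 and 2149 CPM in mono-culture and 286, 310.5, 446 and 505 CPM in KPC1.

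In the Notch pathway, in which ligands on neighbouring cells release an intracellular receptor fragment that induces Hes and Hey repressors, 10 of 13 genes tested were higher and 1 was lower, with a median of 1.61. Hey1 (ENSMUSG00000040289, GRCm38 chr3:8663359-8667256) was at 16.1, 13.2, 12.2 and 15.3 CPM in KPC1 and 0.330, 0.110, 0.152 and 0.366 CPM in mono-culture, 59.3-fold higher (5.79 ± 0.32, edgeR adjusted p = 1.1e-14). Heyl (6.19), Nrarp (5.17) and Hes1 (1.51), further targets, rose as well, although the groups overlapped for Hes1, whose log2 fold change was 2.30 without mono-culture replicate 3. The ligand Jag1 was at 152, 116, 87.5 and 62.3 CPM in KPC1 and 13.4, 15.3, 14.5 and 21.6 CPM in mono-culture. Jag2, a second ligand, rose by 3.87, and every KPC1 library lay above every mono-culture library for both. The receptors Notch1 (1.59) and Notch3 (1.61) were higher and Notch2 (-0.58) was lower.

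Of 13 Hedgehog pathway genes, 4 were higher and 4 lower, with a median of -0.12. These shares were near the 30.5% higher and 28.5% lower over all genes tested. The targets Gli1, Ptch1 and Hhip were among the 4 that were higher. Gli1, a factor whose transcription reports pathway activity, was at 16.8, 20.2, 16.8 and 11.6 CPM in KPC1 and 1.05, 0.990, 1.52 and 1.74 CPM in mono-culture, 12.3-fold higher. The transducers Smo (-0.84) and Gli2 (-1.02) and the co-receptor Gas1 fell. Of 23 Wnt genes, 9 were higher and 5 lower. The targets Axin2 (2.56), Lef1 (1.88) and Tcf7 (1.61) and the ligand Wnt5a (1.62) rose, and their mean levels in KPC1 ranged from 4.30 CPM for Axin2 to 48.1 CPM for Wnt5a. The R-spondin Rspo2, which amplifies Wnt signals, was at 45.1, 59.4, 38.9 and 31.5 CPM in mono-culture and 1.11, 2.89, 0.863 and 0.798 CPM in KPC1, and its relative Rspo3 had a log2 fold change of -3.68.

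For TGF-β signalling, 9 of 18 genes tested were higher and 3 lower, with a median of 0.59. The ligand Tgfb2 was at 107, 85.6, 127 and 69.9 CPM in KPC1 and 13.3, 18.98, 17.5 and 17.2 CPM in mono-culture, 5.82-fold higher, and the feedback genes Skil (1.58) and Smad7 (1.21) rose. The receptor Tgfbr2 (-1.68) and the matrix target Tgfbi were lower, the latter at 46.4, 41.4, 40.5 and 38.7 CPM in mono-culture and 3.11, 2.29, 2.16 and 4.22 CPM in KPC1. Of 19 BMP and activin genes tested, 6 were higher and 7 lower. Inhba, which encodes the activin subunit, was at 74.3, 58.5, 54.2 and 38.9 CPM in KPC1 and 4.24, 7.92, 7.76 and 8.27 CPM in mono-culture. The BMP antagonist Grem1 rose by 1.35. The BMP targets did not move together. Id2 (-2.37) and Id3 (-1.18) fell, the latter with no call without KPC1 replicate 2 (-0.95), whereas Id1 and Id4 were not called. Of 14 genes tied to the mechanosensitive co-activator YAP, 10 were higher and 2 lower. Ctgf was at 676, 999, 547 and 413 CPM in KPC1 and 37.9, 87.5, 58.4 and 46.3 CPM in mono-culture, 11.5-fold higher, and Cyr61 and Ankrd1 rose by 1.37 and 1.01. Yap1 itself was lower (-0.46), as was its inhibitor Amotl2 (-1.26).

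Most genes of the integrated stress response, of tRNA charging and of amino acid and nucleotide synthesis were higher in KPC1, but only 9 of 20 amino acid transporters were. This response is set off by kinases that sense amino acid shortage or other stress and phosphorylate eIF2α, after which the factor ATF4 binds composite elements at genes for amino acid synthesis, import and tRNA charging. The 250 bases upstream of the RefSeq start (GRCm38.p6) are shown for 6 members that rose and hold the element letters TGATGNAA on either strand, marked in capitals (as their reverse complement where the match lies on the opposite strand) and printed 5′ to 3′ on the strand of the gene.
Asns, chr6:7693210-7693459, minus strand: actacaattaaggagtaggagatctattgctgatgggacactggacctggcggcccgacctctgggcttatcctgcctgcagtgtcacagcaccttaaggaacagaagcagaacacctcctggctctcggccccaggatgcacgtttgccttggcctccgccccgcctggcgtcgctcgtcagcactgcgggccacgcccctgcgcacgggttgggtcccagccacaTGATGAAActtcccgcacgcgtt
Atf3, chr1:191183334-191183583, minus strand: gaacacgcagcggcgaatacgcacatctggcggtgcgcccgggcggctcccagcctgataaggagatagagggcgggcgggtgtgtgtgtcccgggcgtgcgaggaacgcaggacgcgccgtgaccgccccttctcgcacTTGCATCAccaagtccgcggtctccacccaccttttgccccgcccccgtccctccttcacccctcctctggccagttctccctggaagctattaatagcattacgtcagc
Chac1, chr2:119350992-119351241, plus strand: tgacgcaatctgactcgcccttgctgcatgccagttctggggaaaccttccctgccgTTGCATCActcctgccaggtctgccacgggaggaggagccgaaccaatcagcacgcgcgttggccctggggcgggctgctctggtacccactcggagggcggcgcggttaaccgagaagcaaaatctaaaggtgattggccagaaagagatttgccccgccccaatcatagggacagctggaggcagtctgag
Nupr1, chr7:126625471-126625720, minus strand: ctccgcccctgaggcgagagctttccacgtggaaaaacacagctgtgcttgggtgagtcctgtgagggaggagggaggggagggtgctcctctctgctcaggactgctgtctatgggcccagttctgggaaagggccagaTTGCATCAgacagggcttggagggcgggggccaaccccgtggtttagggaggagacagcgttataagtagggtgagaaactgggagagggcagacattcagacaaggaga
Gars, chr6:55037751-55038000, plus strand: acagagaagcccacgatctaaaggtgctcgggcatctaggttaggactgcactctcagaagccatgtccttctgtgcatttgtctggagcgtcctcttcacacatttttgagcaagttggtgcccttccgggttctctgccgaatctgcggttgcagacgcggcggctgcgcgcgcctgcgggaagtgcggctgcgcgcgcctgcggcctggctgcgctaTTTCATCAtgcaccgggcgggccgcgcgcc
Tars, chr15:11399659-11399908, minus strand: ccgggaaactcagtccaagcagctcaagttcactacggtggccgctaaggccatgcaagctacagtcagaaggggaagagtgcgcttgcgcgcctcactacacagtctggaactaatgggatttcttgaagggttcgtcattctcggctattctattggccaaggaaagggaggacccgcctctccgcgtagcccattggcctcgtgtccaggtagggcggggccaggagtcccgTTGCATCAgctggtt
The match began 23 bases before the start in Asns, 15 in Tars and 30 in Gars. These letters were present upstream of 5 of the 16 stress response genes that rose and have a window (31.2%) and of 2 of the 8 synthetase genes that rose (25%), as they were of 1 of the 4 synthetase genes with a window that did not pass (25%), against 3.53% of all 27025 genes with a window. A match describes the letters in this window and does not show that a factor binds there. Elements were searched for the Notch and sterol lists as well. The Notch element letters TGGGAA were upstream of 1 of the 7 Notch genes that rose and have a window (14.3%), against 21.5% of all genes with a window. The sterol element letters TCACNCCA were upstream of 2 of the 12 sterol genes that fell (16.7%) and 1 of the 4 that did not pass (25%), against 3.58% of all genes. These shares rest on very few genes.

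Of 22 integrated stress response genes, 18 were higher and 1 was lower, with a median of 1.31, and all 18 remained without KPC1 replicate 1. Asns (ENSMUSG00000029752, GRCm38 chr6:7675169-7693254), the enzyme that makes asparagine from aspartate, was at 577, 715, 467 and 417 CPM in KPC1 and 137, 205, 171 and 180.2 CPM in mono-culture, 3.14-fold higher (1.65 ± 0.23, edgeR adjusted p = 3.9e-07). Atf4 rose by 0.62, at 993, 978, 834 and 843 CPM in KPC1 and 481, 674, 574 and 651 CPM in mono-culture. Ddit3, which encodes the stress factor CHOP, was at 258, 469.8, 249 and 240.2 CPM in KPC1 and 125, 136, 140.2 and 126 CPM in mono-culture. Trib3, a pseudokinase induced by CHOP, rose by 1.40. The libraries of the 2 groups did not overlap for these 4 genes. Gadd45a (3.05), the stress cytokine Gdf15 (2.48), Cth (1.97), Nupr1 (1.70), Atf3 (1.41) and Chac1 (0.89) were higher too. Atf5 was the exception, at 319, 370.2, 324 and 454 CPM in mono-culture and 68.4, 97.1, 71.03 and 70.4 CPM in KPC1, 4.78-fold lower.

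Of 19 cytosolic aminoacyl-tRNA synthetases, 14 were higher and none lower, with log2 fold changes of 0.59 to 1.36 among those that rose. Iars, the isoleucine enzyme, was at 460.04, 490.1, 351 and 250.5 CPM in KPC1 and 131, 171, 144 and 161 CPM in mono-culture, and Tars and Gars, the threonine and glycine enzymes, rose by 1.26 and 1.02. The 5 that did not pass were Kars, Hars, Aars, Farsa and Dars, with log2 fold changes of 0.00 to 0.20. Of 20 amino acid transporters, 9 were higher and 2 lower, and those that rose included the cystine importer Slc7a11 (1.92), the cationic importer Slc7a1 (1.11) and the shared heavy chain Slc3a2 (0.99). Of 16 serine and one-carbon enzymes, 10 were higher and 1 lower. Phgdh, the first enzyme of serine synthesis, was at 478, 486, 387 and 434 CPM in KPC1 and 203, 271, 229.8 and 243 CPM in mono-culture, and Psat1 (0.63) and Mthfd2 (1.14) rose with it. Of 29 further genes of amino acid and nucleotide synthesis, 17 were higher and 4 lower, among the higher ones the proline enzyme Aldh18a1 (1.04) and the transaminases Got1 (1.43) and Gpt2 (1.15). Ass1, which makes argininosuccinate, was lower (-0.97).

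**Figure D4:**
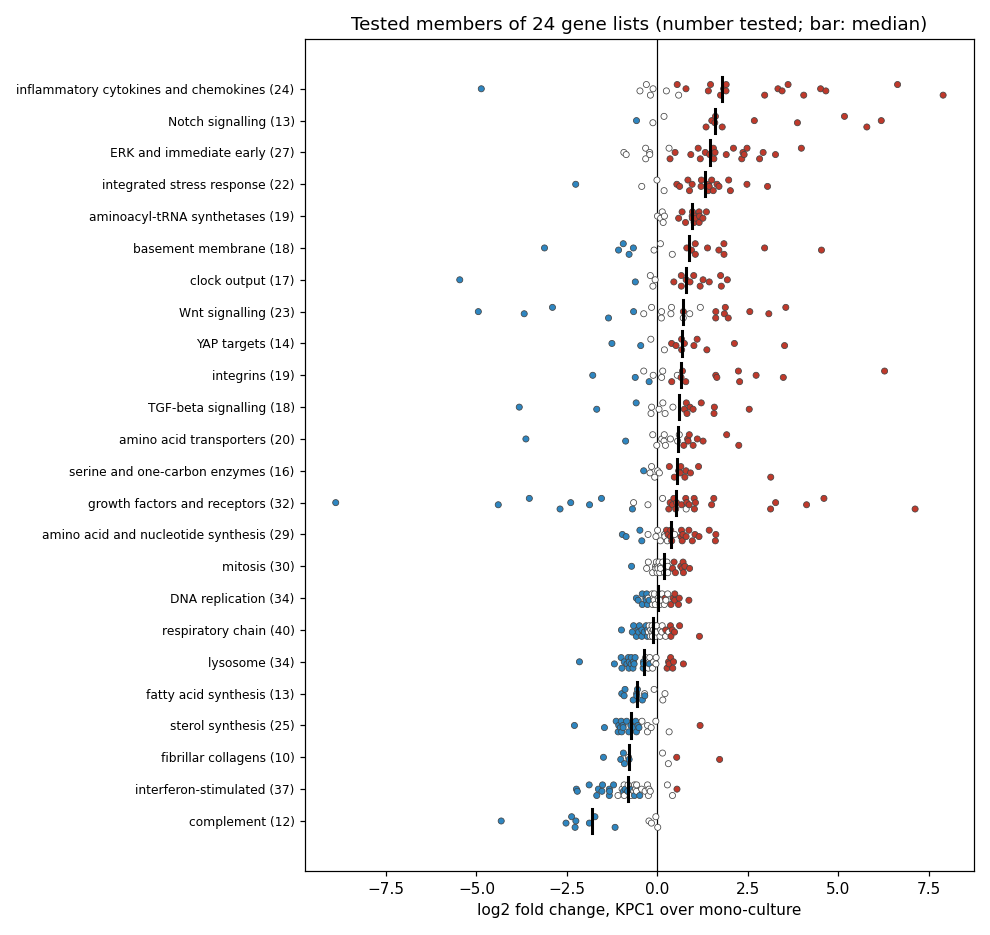
Log2 fold change of KPC1 over mono-culture for each tested member of 24 gene lists, with 1 point per gene, filled where it passed the adjusted p of 0.05, and a bar at the list median. The ERK, integrated stress response and synthetase lists lie mostly above 0 and the sterol, complement and interferon lists mostly below 0.

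In the endoplasmic reticulum, 11 of 24 chaperone and XBP1 target genes were higher and 3 lower. Hspa5, the chaperone BiP, was at 1526, 1452, 1099 and 1235 CPM in KPC1 and 429, 479, 426 and 508 CPM in mono-culture, 2.88-fold higher (1.53 ± 0.17, edgeR adjusted p = 8.2e-09), and was among the 10 genes with the largest gain in CPM. The stress sensor Atf6 (1.72), the factor Xbp1 (1.06) and the oxidase Ero1l (1.21) rose, while the lectin chaperone Calr fell (-0.45). Heat shock genes went both ways, 6 of 17 higher and 6 lower, with the mitochondrial chaperonin chains Hspd1 (1.10) and Hspe1 (0.52) up and Cryab (-2.22) and Hspa1b (-1.41) down. Mt1, a zinc-binding metallothionein, was at 254, 265, 249 and 191 CPM in mono-culture and 34.1, 48.5, 42.2 and 60.2 CPM in KPC1, and its neighbour Mt2 had a log2 fold change of -3.40, although reads may be shared between them. The ferritin heavy chain Fth1 was 2.29-fold lower and was among the 10 largest losses of CPM.

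Genes of lipid synthesis were mostly lower. Of 25 sterol genes, 18 were lower and 1 was higher, with a median of -0.73, and all 18 remained without KPC1 replicate 1. Mvk, mevalonate kinase, was at 73.3, 90.1, 87.3 and 89.7 CPM in mono-culture and 18.1, 11.8, 19.96 and 19.6 CPM in KPC1, 4.90-fold lower (-2.29 ± 0.17, edgeR adjusted p = 1.1e-11). Sqle (-1.14), Lss (-1.02), Hmgcs1 (-0.99) and Fdps (-0.85) fell. Of 13 fatty acid genes, 9 were lower and none higher, among them Acly (-0.89), Fasn (-0.57, and -0.36 with no call without KPC1 replicate 2) and the desaturase Scd2, which was at 3389, 4266, 3976 and 4681 CPM in mono-culture and 2574, 1621, 2525 and 1909 CPM in KPC1. The lipid droplet gene Plin4 was at 60.8, 41.8, 49.4 and 39.8 CPM in mono-culture and 1.05, 1.09, 3.02 and 4.16 CPM in KPC1, whereas Angptl4, an inhibitor of lipoprotein lipase, rose by 3.64.

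Of 34 lysosome genes, 19 were lower and 7 higher, with a median of -0.38. Lamp1 was at 1652, 1696, 1454 and 1419 CPM in mono-culture and 782, 859, 871 and 961 CPM in KPC1, and Psap, the precursor of the saposins, was 1.72-fold lower. Ctsl, a cathepsin, was higher (0.32). Of 24 glycolytic genes, 8 were higher and 4 lower. Hk2, the inducible hexokinase, was at 112, 74.5, 78.1 and 52.5 CPM in KPC1 and 14.8, 18.3, 13.6 and 16.9 CPM in mono-culture, 4.99-fold higher, and Pfkfb3 rose by 2.02, but Ldha (0.28) and Gapdh (-0.10) did not pass. Hypoxia genes gave 3 higher and 5 lower of 17. Among 40 nuclear genes of the respiratory chain 7 were higher and 13 lower, with a median of -0.13. Without KPC1 replicate 1, 8 of the 13 remained. The mitochondrial transcript mt-Co1 had the largest gain in CPM among called genes whose groups did not overlap. It was at 16724, 15641, 16756 and 20778 CPM in KPC1 and 14932, 14503, 14064 and 7447 CPM in mono-culture, where replicate 4 was far below the other 3. Its log2 fold change was 0.46, and 0.27 without mono-culture replicate 4. Of 31 proteasome genes 11 were higher and 1 lower, with a median of 0.17, and the largest change was in Psmd8, a subunit of the regulatory cap, at 1.15.

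Of 34 replication genes, 8 were higher and 9 lower, with a median of 0.03, and of 30 mitotic genes, 9 were higher and 1 lower, with a median of 0.17. Mki67, a marker of cycling cells, was at 668, 518, 665 and 552 CPM in KPC1 and 317, 278, 302 and 398 CPM in mono-culture, but Top2a (0.15), Cdk1 (0.09) and Pcna (0.02) did not pass. Cyclin D1 (Ccnd1) was 3.97-fold higher, at 457, 243, 313 and 205 CPM in KPC1 and 66.7, 77.3, 68.1 and 94.9 CPM in mono-culture. The inhibitors differed, with Cdkn1a higher (1.07) and Cdkn1c (-3.62), Cdkn2c (-1.25) and Cdkn2a (-1.05) lower. Of 24 p53 targets and cycle inhibitors 13 were higher and 6 lower, including the pro-apoptotic Pmaip1 (1.94) and Bbc3 (1.14).

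Of 17 circadian clock genes, 12 were higher and 2 lower. Nr1d1, a repressor of the clock loop, was at 126, 138, 85.4 and 74.8 CPM in KPC1 and 25.9, 35.6, 33.9 and 30.8 CPM in mono-culture, Arntl rose by 1.26 and Per1 by 1.18, while Hlf, an output factor, was at 14.4, 11.7, 8.97 and 12.1 CPM in mono-culture and 0.158, 0.362, 0.246 and 0.285 CPM in KPC1. Integrins gave 11 higher and 3 lower of 19. Itga6, a laminin receptor chain, was at 325, 155, 125 and 111 CPM in KPC1 and 25.6, 27.9, 28.9 and 25.5 CPM in mono-culture, and its epithelial partner Itgb4 rose by 3.48. Itga2, a collagen receptor chain, was at 28.7, 8.14, 11.3 and 5.13 CPM against 0.0550, 0.165, 0 and 0.366 CPM, with replicate 1 the highest. Among 36 guidance genes, 14 were higher and 9 lower, and the class 3 semaphorins Sema3c (-3.58), Sema3d (-2.58), Sema3f (-1.61) and Sema3a (-1.16) fell while Sema3e (1.14) and Sema7a (2.85) rose. Of 26 mesenchymal transcription factors 10 were higher and 9 lower, with Runx1 (1.48) and Snai1 (1.24) up and Osr2 (-3.21) and Gata6 (-0.91) down. Retinoid genes gave 4 higher and 4 lower of 17, among them Crabp1 (-2.51), a retinoic acid binding protein. Rbp4, the retinol carrier, was at 22.3, 5.07, 13.6 and 14.3 CPM in KPC1 and 0.0550, 0, 0 and 0.229 CPM in mono-culture.

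The comparison above cannot tell what belongs to KPC1 from what belongs to co-culture, so KPC1 was also tested against the mean of the 7 clones, a contrast that does not use the mono-culture libraries. In this contrast 5929 genes (41.1%) passed, 3215 higher (22.3%) and 2714 lower (18.8%), and 901 (6.24%) passed with at least a 2-fold difference, 327 higher (2.26%) and 574 lower (3.98%). The mean profile of KPC1 lay nearest to clone H, at a root mean square log2 difference of 0.426 over all genes tested, followed by T (0.473), V (0.572), N (0.666), E (0.703), M (0.916) and K (0.952), with mono-culture at 1.13. There were 43 genes (0.298%) that had all 4 KPC1 libraries beyond all 28 clone libraries.

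**Figure D5:**
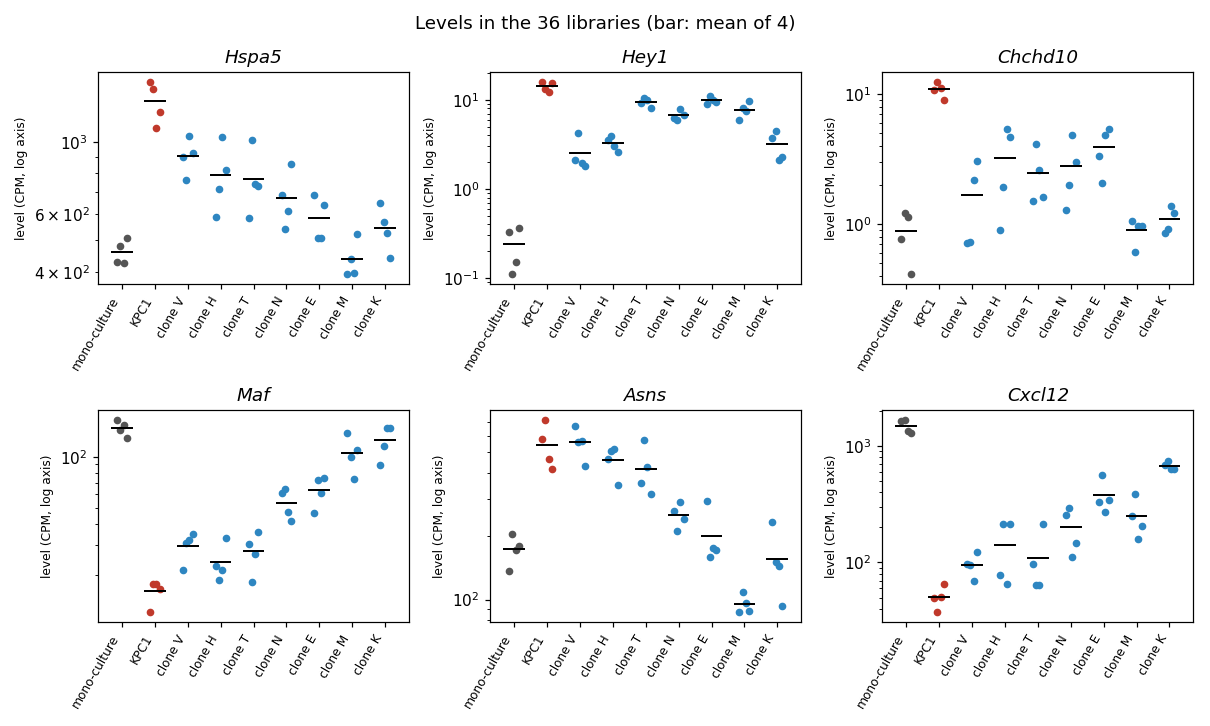
Level (CPM, log axis) of 6 genes in each of the 36 libraries, by group, with 1 point per library and a bar at the mean of the 4. Hspa5, Hey1 and Chchd10 are higher in KPC1 than in any clone library, Maf is lower than in any clone library, and the KPC1 range is reached by 9 clone libraries for Asns and by 3 for Cxcl12.

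Those 43 genes are the ones whose KPC1 levels no clone library reached. Of them, 29 were called in this contrast and had a mean of at least 10 CPM in KPC1 or over the clones. These 29 were ranked by the size of the difference, and 20 are named. Their separation from the clones and their small adjusted p-values follow from that choice and are no further evidence. Hspa5 was higher than the mean of the clones by 1.02 ± 0.12 on the log2 scale (edgeR adjusted p = 2.2e-07), where the clone means ran from 438 CPM to 907 CPM against 1328 CPM in KPC1. Hey1 stood at 14.2 CPM in KPC1 and at 2.53 to 9.91 CPM in the clones (1.41 ± 0.15). Chchd10 (ENSMUSG00000049422, GRCm38 chr10:75933130-75937747), which encodes a protein of the mitochondrial cristae, was at 10.8, 12.5, 11.1 and 9.01 CPM in KPC1, with clone means of 0.902 to 3.90 CPM and a mono-culture mean of 0.883 CPM, a log2 difference from the clones of 2.42 ± 0.28. Its KPC1 libraries were close together, and the highest clone library was at 5.42 CPM. Cct4, a subunit of the cytosolic chaperonin, and Pold4, a small subunit of DNA polymerase δ, were higher by 0.92 ± 0.11 and 0.81 ± 0.08. Eml2, Slc17a5, Rpp14, Nat9 and Psrc1 completed the 10 highest of these 29, at 0.63 to 0.95. The largest shortfall among the 29 was in Maf, a transcription factor, at 11.97, 17.6, 17.6 and 16.5 CPM in KPC1, with clone means of 23.9 to 126 CPM and a mono-culture mean of 148 CPM (-1.68 ± 0.19, edgeR adjusted p = 2.8e-07). The zinc finger genes Zfhx4 and Zfp521 had log2 differences from the clones of -1.45 ± 0.20 and -1.28 ± 0.19, and the adhesion gene Thsd7a of -0.91 ± 0.13. Il6ra, which encodes the interleukin 6 receptor chain, was at 10.6, 13.4, 13.2 and 10.2 CPM in KPC1, below clone means of 16.3 to 27.8 CPM. The clones and KPC1 were each compared with the same mono-culture libraries, so only this direct contrast is given for the lists.

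Against the mean of the 7 clones, 16 of 22 integrated stress response genes were higher in KPC1 and 1 was lower, with a median of 0.80. Asns was 1.06 ± 0.15 above the mean of the clones, Ddit3 1.11 ± 0.14 and Trib3 1.31 ± 0.17, all on the log2 scale. Of the synthetases 15 of 19 were higher and none lower. In the ERK list 11 of 27 were higher and 2 lower, and in the cytokine list 19 of 24 were higher and 2 lower. In contrast, the interferon-stimulated list had 5 of 37 higher and 0 lower, and the sterol list 1 of 25 higher and 7 lower, beside 22.3% higher and 18.8% lower over all genes tested. Matrix glycoproteins had none of 28 higher and 17 lower, and Wnt genes 1 of 23 higher and 11 lower. Cxcl12 was -2.06 ± 0.33 relative to the clones, whose means ran from 95.9 to 673 CPM, and Lox was -1.58 ± 0.24. Areg (2.62 ± 0.33) and Cdh1 (3.15 ± 0.34) were higher than the mean of the clones on the log2 scale, but 6 of the 28 clone libraries reached the KPC1 range in each. Clone means ran from 0.0304 to 26.4 CPM for Cdh1, with 10.7 CPM over the 7 clones, against 30.9 CPM in KPC1. For Areg they ran from 0.417 to 13.7 CPM, with 7.06 CPM over the 7 clones, against 22.5 CPM. The contrast averages the clones on the log scale, so clones with few reads pull their mean down. Krt8 (-0.03), Krt18 (0.58) and Cldn6 (0.46) did not pass in this contrast. The Wnt target Axin2 was lower than in the clones (-2.11 ± 0.35), although it was higher than in mono-culture, and the BMP target Id3 was lower than in both (-2.11 ± 0.37 against the clones).

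Clone V was chosen for a direct comparison because its count of genes called against mono-culture was nearest to that of KPC1 in earlier results. That choice came from these same data, so the counts of calls that follow are no independent measure of likeness. By mean profile clones H (0.426) and T (0.473) lay nearer to KPC1 than clone V (0.572). Its epithelial marker sum of 73.1 to 286 CPM was below every KPC1 library. KPC1 differed from clone V in 1550 genes (10.7%), 910 higher (6.30%) and 640 lower (4.43%), and 448 of them (3.10%) by at least 2-fold, 335 higher (2.32%) and 113 lower (0.783%). The count of 1550 became 613 without KPC1 replicate 1, 595 without clone V replicate 1, and 133 when the fit held only these 8 libraries. It became 2438 with the replicate number as a block. Hey1 was 2.48 ± 0.24 above clone V (edgeR adjusted p = 5.4e-08), Chchd10 2.71 ± 0.47 and Pold4 0.86 ± 0.12, while Thsd7a was -1.25 ± 0.17 and Lox -1.05 ± 0.29. None of the 22 integrated stress response genes and none of the 27 ERK-responsive genes was called against clone V by edgeR or by DESeq2, with 4 of each at an unadjusted p under 0.05 in edgeR, and their medians were -0.11 and 0.12. Of the 19 synthetases 1 was higher and 1 lower, of 24 cytokine and chemokine genes 8 were higher and 1 lower, and of 13 Notch genes 7 were higher and none lower. Areg differed from clone V by 0.98 ± 0.49 (adjusted p = 0.2) and Cdh1 by 1.05 ± 0.46 (adjusted p = 0.14). Asns differed by -0.04 ± 0.22 (adjusted p = 0.94) and Cxcl12 by -0.92 ± 0.38 (adjusted p = 0.11). Palmd, which had no count in mono-culture, was at 23.95 CPM in KPC1 and 1.59 CPM in clone V, a log2 difference of 3.94 ± 0.83.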

How the data were processed

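RNA from 36 fibroblast libraries was sequenced, and the 8 of KPC1 co-culture and mono-culture were analysed here with the 28 of the clones in the same fit. The authors deposited counts per gene and RPKM (counts scaled to transcript length and library total) for the same libraries. Per the labels the submitters' processing notes name STAR, featureCounts, edgeR and the build mm10. The annotation release and the strand setting of the counting are not given in the sources used here, so overlapping genes cannot be separated with certainty. The counts were tested with edgeR 4.0.16 (quasi-likelihood, robust) in R 4.3.3, with filterByExpr over the 9 groups, TMM scaling, 1 coefficient per group and Benjamini-Hochberg adjustment over 14439 of 39017 genes, and an adjusted p under 0.05 was called. The deposited RPKM values were used in limma 3.58.1 on log2(RPKM + 1) and log2(RPKM + 0.1) as alternatives, and DESeq2 1.42.0 as another. The SE of a log2 fold change is its size divided by the square root of the F statistic. The fit was tested on simulated counts beforehand.

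The members and gene lists were chosen with earlier results of these data known. Named genes were first taken from called genes with a group mean of at least 10 CPM and groups that do not overlap. From these came the 20 highest and 20 lowest log2 fold changes and the 10 largest rises and falls in CPM. Also named are the 10 highest and 10 lowest against the clones. Those were taken from genes called in that contrast and beyond all clone libraries, with a mean of at least 10 CPM in KPC1 or over the clones. List members are named as well. Genes of a list are otherwise examples, and some list members are not reported here. A floor is 3 counts per library, and intervals and floors cover counting error only. Promoter sequences are those of RefSeq, GRCm38.p6, at the first window listed for a gene.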

Additional observations from a re-analysis of the deposited data

Results flagged for a closer look

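Among 544 sets of 4 libraries (272 genes named in the text, in each of the 2 groups), 33 held a library whose gap to the nearest of the others divided by the set's range was above Dixon's 95% value, where chance gives about 1 set in 20, or 27.2 sets. The values in brackets are that gap as a share of the range. In Krt8, Cdh13, Ifi202b, Foxa2, Cadm1 and Igfbp5 the share was 1 because a single library of mono-culture (of KPC1 for Igfbp5) held all the reads of its group, which were 1 or 2. KPC1 replicate 1 stood above the other 3 in Cdh13 (0.889), C3 (0.860), Spp1 (0.833), Nat9 (0.842), Cxcl1 (0.943), Nfkbia (0.890), Isg20 (0.864) and Sema3c (0.843). KPC1 replicate 2 stood above the other 3 in Rspo2 (0.853), Bgn (0.929), Lef1 (0.888), Atf5 (0.909), Ddit3 (0.922), Chac1 (0.882) and Igfbp7 (0.866). KPC1 replicate 3 stood above the other 3 in Eef2 (0.875) and Pdgfrb (0.853). KPC1 replicate 4 stood above the other 3 in Gnb2l1 (0.898). KPC1 replicate 4 stood below the other 3 in Col5a3 (0.916). Mono-culture replicate 1 stood below the other 3 in Inhba (0.872), Chac1 (0.857) and Mvk (0.833). Mono-culture replicate 2 stood above the other 3 in Sema3c (0.842). Mono-culture replicate 3 stood below the other 3 in Cdkn1c (0.888). Mono-culture replicate 4 stood above the other 3 in Pdzd2 (0.892) and Col4a1 (0.879). Mono-culture replicate 4 stood below the other 3 in mt-Co1 (0.884). The widest of these gaps in CPM among the KPC1 libraries of replicate 1 were in Spp1, at 3192 CPM against 1044 to 1401 CPM, and in Cxcl1, at 292 CPM against 5.67 to 21.9 CPM, and the groups stayed apart for Spp1 but not for Cxcl1.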

How the results depend on the processing

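The number of genes called between KPC1 and mono-culture was 8526, and it stayed within 1.5 times that count under every other test, scaling and filter tried, from 7031 (adjusted p under 0.01) and 7410 (a minimum of 10 counts per compared library) to 8598 (DESeq2), with 7977 from the 8 libraries alone and 8319 and 8409 from limma-trend on RPKM. Requiring at least a 2-fold change left 3046. The balance of directions was less stable than the total. It was 4366 higher and 4232 lower in DESeq2, but 3701 higher and 4693 lower with library totals only. With limma-trend it was 3574 and 4745 on log2(RPKM + 1), and 3628 and 4781 on log2(RPKM + 0.1). Leaving out 1 library at a time gave 7916 (without KPC1 replicate 1) to 8698 genes (without KPC1 replicate 4), and 4378 to 5842 against the 7 clones. Against clone V the 1550 calls became 133 with only the libraries compared and ran from 595 (without clone V replicate 1) to 1817 over the left-out libraries, with 613 without KPC1 replicate 1. With the replicate number as a block, 9028 genes passed between KPC1 and mono-culture, 6697 against the 7 clones and 2438 against clone V. Same-numbered KPC1 and mono-culture libraries correlated in their deviations from the group means at -0.177, 0.339, -0.0541 and -0.0523, and KPC1 replicate 4 correlated best with mono-culture replicate 1 (0.583), so the numbers were not taken as pairs. Same-numbered KPC1 and clone V libraries correlated at -0.151 to 0.167, and KPC1 and the mean of the 7 clones at 0.0307 to 0.555. With that mean, 3 of 4 KPC1 libraries correlated best with their own number. By clone, 3 did so for K, M and T, 2 for E, 1 for H and V, and 0 for N. Outside the blocked counts the clone contrasts do not model the replicate number, and whether KPC1 and clone libraries of 1 number were handled together was not tested. No named gene reversed its sign with a call. Depth limits genes with few reads in mono-culture, such as Krt8 and Foxa2, whose ratios have wide counting intervals.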
